A study of Homo sapiens with 3 samples.

Results

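Genes of immortalization, senescence and cell cycle control were examined in open chromatin of hCMEC/D3. The set held 9 genes, chosen by symbol: TERT, TERC, CDKN2A, CDKN2B, CDKN1A, MDM2, RB1, CCND1 and MYC. All 9 were found among the 59679 genes of a RefSeq gene table (GRCh38.p14) on the 24 chromosomes of the peak list. A peak was assigned to a gene when it overlapped the gene or 10 kb on either side, which gave 46 peaks of the 106415 called.

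hCMEC/D3 is an immortalized human brain microvascular endothelial line, used as a model of the blood-brain barrier. Cultures were confluent on collagen-coated plates and at low passage, per the labels. The series as used here held 1 ATAC library (replicate 2) and 2 RNA libraries (replicates 1 and 2) with no treatment named in the labels and no second group. The RNA tables list Ensembl transcripts that no table used here pairs with genes, so the RNA level of the 9 genes is not analysed here.

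ATAC-seq marks accessible DNA by inserting sequencing adapters with the Tn5 transposase. The line is a single clone and is known to carry introduced copies of the human telomerase reverse transcriptase and of the SV40 large T antigen. Telomerase consists of the catalytic protein TERT and the template RNA TERC, and it restores chromosome ends that shorten with division. The INK4 proteins of CDKN2A and CDKN2B block the cyclin D kinases, which otherwise inactivate the RB1 protein and release E2F factors. CDKN1A encodes an inhibitor of cyclin-dependent kinases, MDM2 a ubiquitin ligase, and MYC drives growth and proliferation. Large T binds and inactivates the RB1 protein family.

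Every one of the 9 genes had at least 1 peak within 1 kb of a gene end. The same was true of 72.8% of the 20037 protein-coding genes and of 42.1% of all genes, so such a peak was the common state. A peak in the gene or the 10 kb around it, also present for all 9, was found for 89.8% of protein-coding genes. Counted once, 11 of the 46 peaks lay at a gene end, 23 inside a gene and 12 in a flank. Peaks shared by CDKN2A and CDKN2B took their position from CDKN2A here. The peak chr9:22005158-22006366 was thus counted as flank, although it lay inside CDKN2B. Counted for each gene, 24 lay inside and 13 in a flank. The value used below is the pileup, the number of 200 bp tags stacked over a position, which the caller averages over a broad peak. The 11 peaks at gene ends had medians of 52.7 tags and 1055 bp in length. Peaks inside the genes had medians of 22.8 tags and 564 bp, and peaks in the flanks 43.1 tags and 500.5 bp. Over all peaks of the library the medians were 21.6 tags and 452 bp. Each pileup below carries a 95% Poisson interval that covers counting error only, since there was 1 library and no replicate, and no test between conditions was possible.

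**Figure D1:**
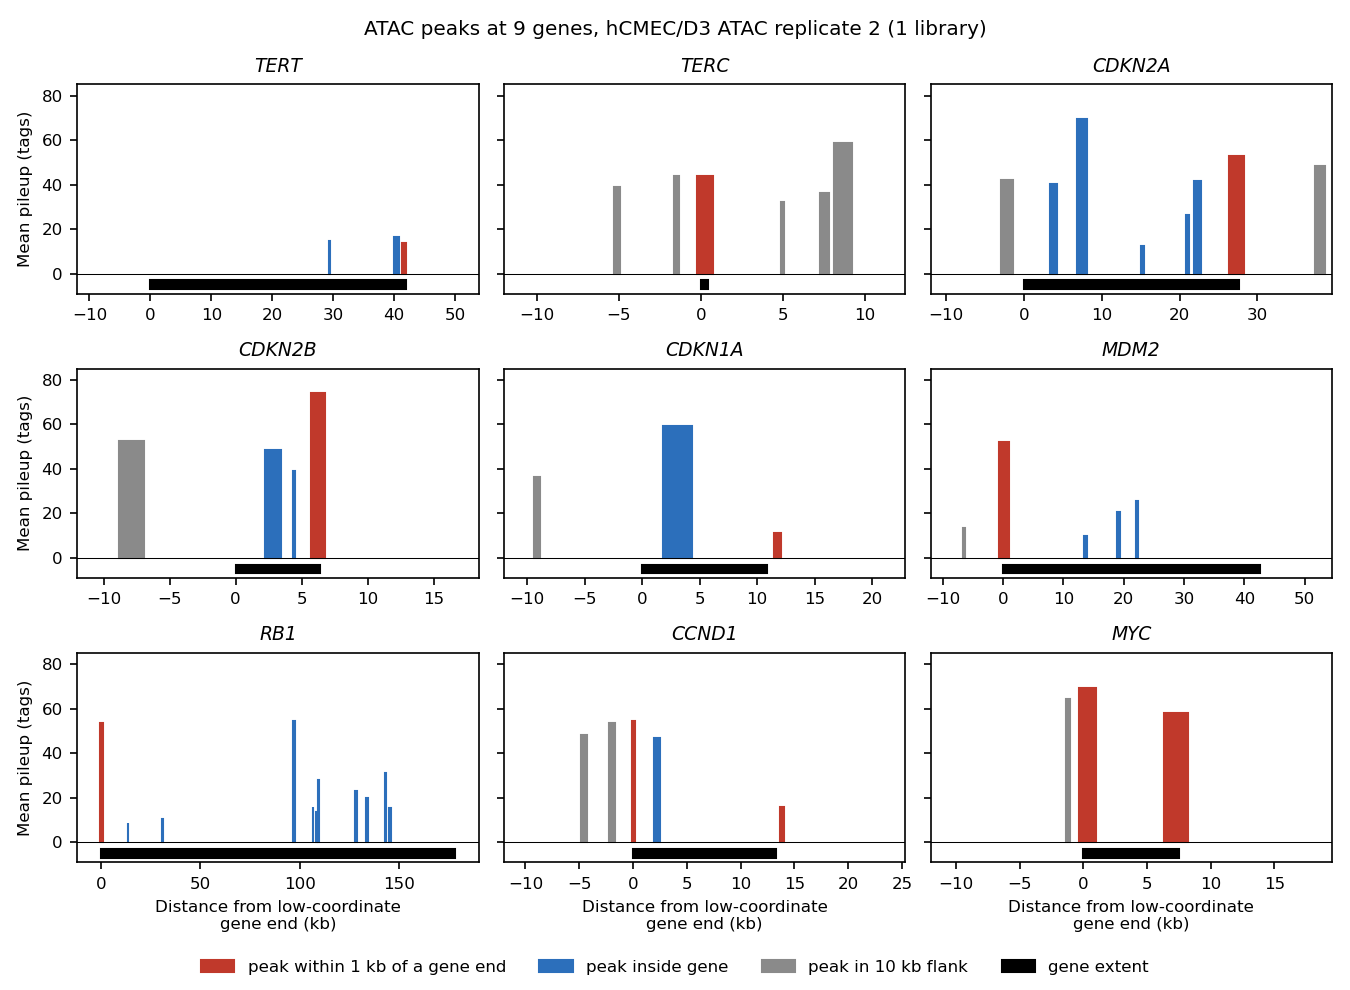
Mean pileup in tags (vertical axis) of each peak, drawn to its length, against the distance in kb from the low-coordinate end of each gene (horizontal axis, a different range per panel), with black bars for the gene extents. TERT shows only low peaks, at most 16.6 tags, while MYC shows 3 peaks between 57.9 and 69.2 tags.

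The strongest peak of each gene was read at the gene itself, leaving aside flanks. It was highest at CDKN2B, with 74.1 tags (95% interval 67.0 to 81.9), followed by CDKN2A with 69.4 (63.1 to 76.1) and MYC with 69.2 (63.1 to 75.8). CDKN1A had 59.2 tags (55.0 to 63.7). RB1 had 54.5 tags (47.2 to 62.6), CCND1 54.4 (44.1 to 66.5) and MDM2 52.2 (47.2 to 57.5). TERC had 43.9 tags (38.2 to 50.2) and TERT 16.6 (12.6 to 21.3). Intervals of neighbours in this order overlapped from CDKN2B down to TERC. Overlap does not show that a step was within counting error, and the steps were not tested. The interval of the strongest TERT peak overlapped that of no other gene's strongest peak.

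**Figure D2:**
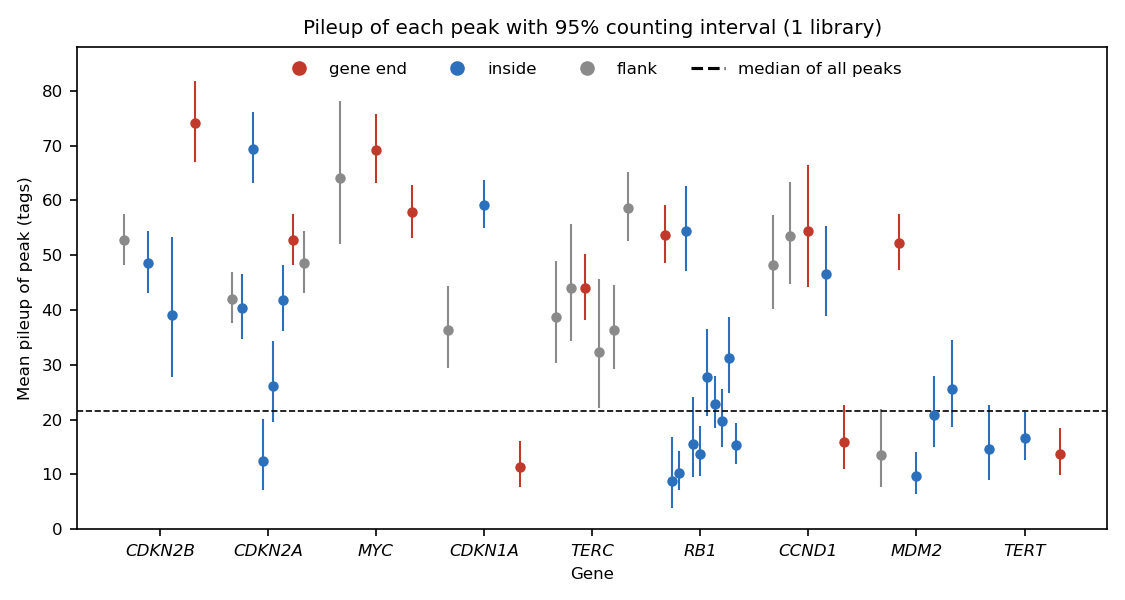
Mean pileup in tags of every peak with its 95% counting interval, by gene and position, in order of each gene's highest peak in the gene or flanks; the dashed line is the median of all peaks, 21.6 tags. All 3 TERT peaks lie below that line, and 5 genes reach over 55 tags, TERC among them only through a flank peak.

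TERT, the catalytic subunit of telomerase, had the lowest strongest pileup of the set, though not the lowest fold. It had 3 peaks over a gene of 41902 bp and none in its flanks. The peak at the transcription start, chr5:1294478-1295099, had a pileup of 13.7 tags (9.89 to 18.5) and a fold enrichment of 3.20. Fold enrichment is (pileup + 1) / (background + 1), with a local background taken from the same library. Of the 14595 protein-coding genes with a gene-end peak, 5.88% had a weaker one than TERT. The peak covered 31 of the 250 bases before the annotated start and had its centre 279.5 bases after it, within the gene. A second peak of 721 bp, chr5:1293233-1293953, had its centre 1.48 kb inside the gene from that end and 16.6 tags. Both this peak and the one at the start also overlapped another annotated gene, LOC124905596. The remaining one, chr5:1282422-1282691, was a 270 bp peak of 14.7 tags (8.96 to 22.7) at the lowest background the caller allows. Reads from the introduced TERT copy and from the native gene were not told apart. The peaks were not compared with exon positions, so any of the 3 may hold reads of either copy. The 250 bases before the TERT start, 78.8% of them G or C, held 1 E-box (CACGTG, the site of MYC and its partner MAX), 158 bases before the start. They also held 2 GC boxes (GGGCGG), at 81 and 239 bases, and all 3 matches lay outside the peak. An E-box was found in 6.34% of the 35116 windows of this length in the table of promoters.

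TERC, the template RNA, differed from TERT in having a gene-end peak near the middle of the range of protein-coding genes. The peak chr3:169764375-169765343 spanned the whole 451 bp gene and had 43.9 tags and a fold of 4.36. A lower gene-end pileup was found for 46.7% of protein-coding genes with such a peak. A further 5 peaks lay in the flanks, with 32.4 to 58.6 tags. The strongest of them, chr3:169772688-169773836, lay at the end of the zinc finger gene MYNN, another overlapped the end of ACTRT3, and a further one a valine transfer RNA gene, TRV-AAC1-1. The other flank peaks, with 38.8 and 44.1 tags, lay outside annotated genes at 5.10 and 1.49 kb from TERC. With 6 peaks the density was 2.93 per 10 kb, above that of 99.8% of protein-coding genes with their flanks, whose median was 0.663. The small gene makes most of this window flank, and 3 of its 5 flank peaks overlapped other genes.

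The neighbouring inhibitor genes CDKN2A and CDKN2B held the largest covered length of the set. CDKN2A had 8 peaks and CDKN2B 4, of which 2 were shared because the flanks overlap, so the locus held 10 peaks covering 9684 bp. RB1 came next, with 7098 bp over a far longer gene. CDKN2A encodes 2 unrelated proteins from separate first exons: p16, a kinase inhibitor, and ARF, which restrains MDM2. Both starts lay within peaks. The peak over the p16 start, chr9:21974513-21975810, had 69.4 tags and a fold of 4.09. The peak over the ARF start, chr9:21994056-21995980, was longer, at 1925 bp against 1298 bp, and had 52.7 tags (48.2 to 57.5) and a fold of 2.82. The counting intervals of these pileups did not overlap, so the mean pileup was higher at the p16 start within this library. The ARF peak also covered the end of the antisense RNA gene CDKN2B-AS1, and accessibility at this shared region cannot be divided between those genes. The peak at the start of CDKN2B, the p15 inhibitor, was chr9:22008624-22009678 with 74.1 tags and a fold of 4.07. A lower gene-end pileup was found for 90.0% of protein-coding genes with such a peak at CDKN2B, and for 62.7% at the ARF end of CDKN2A. Inside CDKN2A the remaining peaks ran from 12.4 to 41.9 tags, and inside CDKN2B they had 48.6 and 39.0 tags. Of those inside CDKN2A, the peaks of 12.4, 26.2 and 41.9 tags also overlapped another annotated gene, LOC124902130. The peaks inside CDKN2B and the peak at its start also overlapped CDKN2B-AS1, so they cannot be assigned to CDKN2B alone.

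The 250 bases before these starts are shown because each window lay whole within its peak. Sequences are from RefSeq (GRCh38.p14, minus strand), 5′ to 3′, and capitals mark matches to the motifs searched. The windows are chr9:21974858-21975107 for p16, chr9:21995325-21995574 for ARF and chr9:22009306-22009555 for CDKN2B.
CDKN2A p16 start: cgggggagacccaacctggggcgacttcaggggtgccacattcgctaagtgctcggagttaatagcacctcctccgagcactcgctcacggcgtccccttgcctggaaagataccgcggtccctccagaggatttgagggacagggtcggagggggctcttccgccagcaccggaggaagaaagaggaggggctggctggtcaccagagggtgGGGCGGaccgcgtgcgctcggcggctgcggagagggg
CDKN2A ARF start: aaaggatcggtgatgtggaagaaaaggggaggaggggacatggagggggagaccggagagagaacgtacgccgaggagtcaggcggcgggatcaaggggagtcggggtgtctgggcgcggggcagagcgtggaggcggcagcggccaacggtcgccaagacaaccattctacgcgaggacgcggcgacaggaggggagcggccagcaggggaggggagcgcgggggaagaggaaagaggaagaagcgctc
CDKN2B start: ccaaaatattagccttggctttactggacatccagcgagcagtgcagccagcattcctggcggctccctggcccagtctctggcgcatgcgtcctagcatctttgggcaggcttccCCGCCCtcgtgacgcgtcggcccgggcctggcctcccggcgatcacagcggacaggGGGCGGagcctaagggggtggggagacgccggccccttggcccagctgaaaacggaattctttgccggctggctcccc
The capitals in the p16 and CDKN2B windows are GC boxes (GGGCGG, either strand, the site of SP1-type factors). The p16 window held 1, its last base 32 bases before the start, and the CDKN2B window 2, at 73 and 129 bases. The ARF window held no match to any motif searched. A GC box was found in 42.6% of all 35116 windows. GC content was 66.8% in both CDKN2A windows and 66.4% for CDKN2B, above 71.7% and 70.7% of all windows. The other motifs searched on both strands were the E2F sequences TTTCGCGC, TTTGGCGC and TTTCCCGC, the E-box, CCAAT, the TATA sequence TATAAA, the ETS sequence CCGGAAG and the AP-1 sequence TGANTCA. A match describes letters only.

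CDKN1A, which encodes the inhibitor p21, had its main peak inside the annotated gene. The gene-end rule caught only a peak of 11.3 tags (7.73 to 16.1) at the far end, chr6:36687958-36688511, since the annotated extent begins upstream of the start listed in the promoter table. Over that start lay chr6:36678308-36680784, with 59.2 tags and a fold of 3.28. At 2477 bp this was the longest of the 46 peaks. Its centre was 832 bases after the start, and it overlapped DINOL, a long noncoding RNA gene beside CDKN1A. A flank peak 9.16 kb from the gene, chr6:36667036-36667564, had the highest fold of the 46, 8.35, with a pileup of 36.4 tags and a local background of 3.47 tags. The same was found at CDKN2A: its p16 start was also counted as inside the gene. These 2 inside peaks had 59.2 and 69.4 tags. The other 21 peaks counted as inside, with shared peaks placed by CDKN2A, had a median of 20.7. Of the 6 genes with an entry in the promoter table, 5 had a peak over a listed window, compared with 70.2% of 15843 protein-coding genes; the RB1 window listed lay far inside the gene and had none.

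The 250 bases before the CDKN1A start (chr6:36678464-36678713, plus strand, RefSeq GRCh38.p14) lay within the longest peak and are shown with motif matches in capitals.
CDKN1A start: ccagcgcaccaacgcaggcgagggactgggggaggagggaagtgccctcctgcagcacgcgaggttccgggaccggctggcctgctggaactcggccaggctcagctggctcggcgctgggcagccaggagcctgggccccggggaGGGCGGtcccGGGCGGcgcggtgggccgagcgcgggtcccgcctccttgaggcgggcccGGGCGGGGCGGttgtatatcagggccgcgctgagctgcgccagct
The capitals are 4 GC boxes, with last bases 99, 89, 40 and 35 bases before the start, of which the closest pair overlap. GC content was 76.4%, above 91.9% of all windows.

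MDM2, a ubiquitin ligase gene, is transcribed from an upstream start and from an intronic start. A single peak, chr12:68807576-68809147, covered both start regions, with 52.2 tags over 1572 bp and a fold of 4.93. A lower gene-end pileup was found for 61.7% of protein-coding genes with such a peak. The other 4 peaks, 3 inside the gene and 1 in the flank, had lower pileups, between 9.65 and 25.6 tags, though the inside peak of 25.6 tags had a fold of 5.22. The windows before the starts, chr12:68807922-68808171 and chr12:68808767-68809016 (plus strand, RefSeq GRCh38.p14), are shown because both lay whole in this one peak, with motif matches in capitals. The table lists another start a few bases from each, not shown; the one beside the upstream start adds a GC box 5 bases before it.
MDM2 upstream start: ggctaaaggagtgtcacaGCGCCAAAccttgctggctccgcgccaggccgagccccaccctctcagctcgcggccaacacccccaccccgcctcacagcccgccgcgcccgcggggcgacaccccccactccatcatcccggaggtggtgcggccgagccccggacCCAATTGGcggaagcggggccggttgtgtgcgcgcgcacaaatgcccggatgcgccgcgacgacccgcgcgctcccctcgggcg
MDM2 intronic start: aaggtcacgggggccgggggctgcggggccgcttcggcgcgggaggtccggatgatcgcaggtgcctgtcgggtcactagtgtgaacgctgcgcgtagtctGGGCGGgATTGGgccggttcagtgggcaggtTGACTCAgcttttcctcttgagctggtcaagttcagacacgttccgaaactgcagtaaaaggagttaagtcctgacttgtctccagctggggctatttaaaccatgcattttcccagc
The upstream window held 1 E2F match (TTTGGCGC, here on the other strand), 225 bases before the start, and 2 CCAAT matches on opposite strands that overlap. That E2F sequence was found in 0.550% of all windows. The intronic window held a GC box, a CCAAT match and an AP-1 match (TGANTCA, found in 6.57% of all windows) with last bases 144, 138 and 112 bases before the start. GC content was 74.4% in the upstream window and 59.2% in the intronic one.

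RB1, the tumour suppressor that holds E2F factors in check, had the largest number of peaks, 11, over the longest gene of the set, 178140 bp. Per length it was not dense: 0.555 peaks per 10 kb, above 42.8% of protein-coding genes. The peak at its start, chr13:48303097-48304615, had 53.7 tags (48.6 to 59.1) and a fold of 5.69, and it also overlapped the divergent noncoding gene RB1-DT. RB1 was the only gene of the set whose gene-end fold was above the protein-coding median of 5.02. Another 10 peaks lay inside, with a median of 17.7 tags. One of them stood out: chr13:48400551-48401280, 730 bp long, had 54.5 tags and a fold of 7.15, as high a pileup as the start itself. It was among 6 inside peaks that overlapped LPAR6, a lysophosphatidic acid receptor gene lying within RB1. The weakest of the 46 peaks, 8.73 tags (3.93 to 16.7) over 200 bp, overlapped the pseudogene PPP1R26P1 in an RB1 intron known for an imprinted CpG island. The lowest pileup in the whole list was 8.0 tags.

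CCND1 encodes cyclin D1, which activates the kinases that the INK4 proteins block. Its 5 peaks were short, from 353 to 558 bp. Of these, 4 had like pileups around the low-coordinate end. In order of position they had 48.2 tags (40.2 to 57.3), 53.4 (44.8 to 63.3), 54.4 (44.1 to 66.5) and 46.7 (39.0 to 55.4), and their intervals all overlapped. The gene-end peak among them, chr11:69641018-69641370, was 353 bp long, and 6.61% of protein-coding genes with a gene-end peak had a shorter one. The fifth, at the other end of the gene, had 16.0 tags (10.9 to 22.6).

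MYC, the transcription factor gene, had peaks at both ends of its 7518 bp. The peak chr8:127735072-127736434 at the low-coordinate end had 69.2 tags and a fold of 3.16. The peak chr8:127741727-127743682 at the other end was longer, 1956 bp, and had 57.9 tags (53.2 to 62.9) and a fold of 2.91. A short flank peak of 308 bp with 64.2 tags (52.1 to 78.1) lay 1.22 kb outside the low-coordinate end, beside the noncoding gene CASC11. Peaks at both ends were found at MYC, at CCND1 and, through 1 peak spanning the short gene, at TERC, compared with 15.4% of protein-coding genes. At CCND1 the second end peak was weak, whereas both MYC end peaks were above the 45.7 tags that is the median of the strongest gene-end peak over protein-coding genes.

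Pileup and fold ranked the genes differently. The strongest gene-end peak was above the protein-coding median of pileup at 6 of the 9 genes, and above the median of fold at 1. For CDKN1A the gene-end peak was the far-end one of 11.3 tags, and for CDKN2A the ARF one of 52.7. The peaks over the CDKN1A and p16 starts, of 59.2 and 69.4 tags, did not enter these counts. The local background under the strongest gene-end peak was above the protein-coding median of 7.88 tags at 7 of 9. It was 21.2 tags at MYC, 18.1 at CDKN2A, 17.4 at CDKN2B and 15.7 at CCND1, higher than at 97.9%, 95.4%, 94.5% and 91.8% of protein-coding genes with a gene-end peak. At TERT it was 3.58 tags, and under the peak over the CDKN1A start 17.4. The caller takes this background from tags of the same library over a surrounding range of 10000 bp, so wide and neighbouring peaks enter it. Only 4 of the 46 peaks sat at the lowest background allowed, 2.37 tags, compared with 35.8% of all peaks. At a fold of at least 4, MYC kept none of its 3 peaks, CDKN2A 1 of 8 and RB1 6 of 11. Most peaks of the library passed this limit. Their median fold was 4.49 over all peaks, and the fold of 4.07 at the CDKN2B start was above 39.5% of them.

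**Figure D3:**
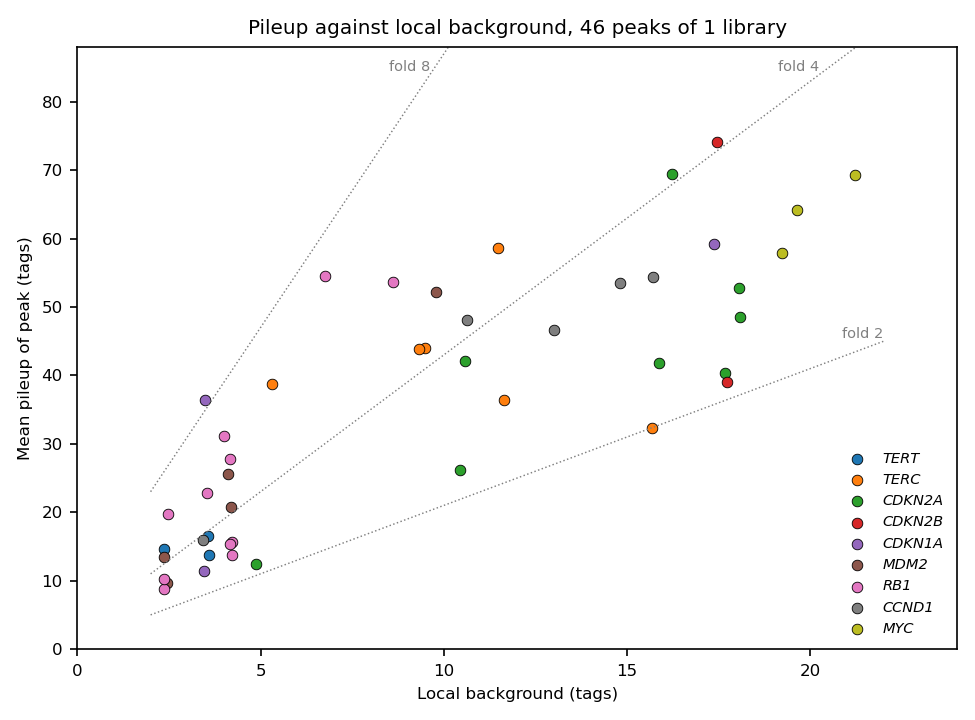
Mean pileup against local background, both in tags, for the 46 peaks coloured by gene (peaks shared by CDKN2A and CDKN2B are drawn as CDKN2A); dotted lines mark folds of 2, 4 and 8. MYC lies at the far right, with backgrounds of 19.2 to 21.2 tags, and TERT at the lower left, with 2.37 to 3.58 tags.

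Other genes of the same pathways were mostly open as well. Of 77 genes in 7 lists, 73 had a gene-end peak (94.8%, 95% Wilson interval 87.4% to 98.0% over genes), beside 72.8% of protein-coding genes. Their median pileup was 57.2 tags, compared with 45.7 tags for protein-coding genes with such a peak. Many genes of these lists are known to be widely expressed, and nothing particular to the pathways is read from this count.

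All 12 genes of the telomerase complex and the telomere had one, with a median of 59.2 tags. The highest was NHP2, a protein of the telomerase particle, at 84.2 tags (75.4 to 93.7), and the lowest NOP10, another, at 40.7 (33.9 to 48.5). TERT at 13.7 tags was thus below each of these 12 genes in the same library. All 4 other cyclin kinase inhibitors had one, from 29.3 tags at CDKN1C to 73.4 at CDKN2D. Among cyclins and kinases it was 9 of 10, from 35.8 tags at CDK6 to 112.6 at CDK2, and CCND2, a relative of CCND1, had none, with 3 peaks elsewhere in the gene and flanks. All 12 pocket protein and E2F genes had one, from 19.3 tags at E2F5 to 93.7 at E2F3, with a median of 42.4.

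For genes of the cellular stress response it was 16 of 19, with the highest median of the lists, 66.0 tags. The highest was RRM2B, a ribonucleotide reductase subunit, at 127.8 tags (119.4 to 136.6), and the lowest TP73, a transcription factor gene, at 23.3. TP63, FAS and AEN had none, although 10, 3 and 11 peaks lay within those genes and their flanks. All 11 genes of the MYC network had one, from 15.9 tags at MYCN, a MYC relative of neural tissue, to 106.5 at MXD1, a MYC antagonist. The 9 senescence genes all had one too, from 30.8 tags at GDF15 to 98.0 at LMNB1, the lamin lost in senescence. IL6 and CXCL8, cytokines of the senescence secretome, had 58.2 and 49.8 tags.

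**Figure D4:**
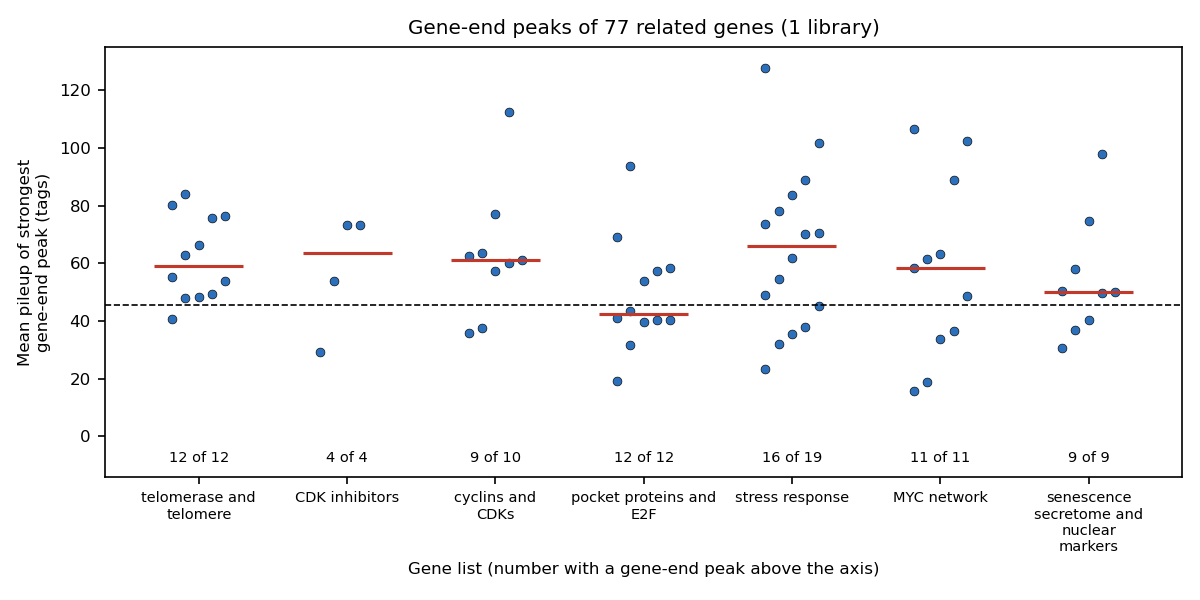
Mean pileup in tags of the strongest gene-end peak of each gene (points) in 7 lists, with list medians (red) and the median of protein-coding genes with such a peak, 45.7 tags (dashed); the numbers above the horizontal axis count genes with a gene-end peak. The stress response list has the highest median, 66.0 tags, and the pocket protein and E2F list the lowest, 42.4.

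The label of the cells was checked with marker genes. A gene-end peak was found at 13 of 13 endothelial markers and at 4 of 5 brain endothelial ones, with none at SLCO1C1, beside 72.8% of protein-coding genes. In the endothelial list the strongest gene-end pileup ran from 10.01 tags at EMCN to 75.0 at EGFL7, and CDH5, ERG and VWF had 62.6, 11.0 and 13.2. Such a peak was also found at 10 of 12 markers of mural, glial, neuronal, immune and epithelial cells. Median pileups were 38.6 tags for the endothelial list, 35.5 for the brain endothelial list and 38.1 for the mural list, all below the 45.7 tags of protein-coding genes. Lower medians were found for the neuron (24.3), astrocyte (21.3), immune (19.1) and epithelial (9.31) lists, of 1 to 3 genes each. Over the 12 markers of other cell types, mural ones included, the median was 24.5 tags. Presence of a gene-end peak therefore did not separate the cell types, and differences in pileup between lists were not tested.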

How the data were processed

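The members, gene lists and windows were chosen with earlier results of these data known. Open chromatin was measured in 1 ATAC library of hCMEC/D3. Per the file headers, the authors called broad peaks with MACS 2.2.7.1 without a control and in single-end mode, at a q limit of 0.05 (broad regions 0.1), using a tag shift of -100 bp and an extension of 200 bp, from 22188172 tags kept of 31532245. The header gives an effective genome size of 1870000000 bp, the caller's mouse preset, which sets the lowest background at 2.37 tags and so can change folds and calls of weak peaks. The deposited columns used were the pileup signal, the fold enrichment ratio and the −log10 q-value; the −log10 p-value was not used.

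The submitters' processing notes name GRCh38 and mm10 without a role, and the peak list names no build. At the coordinates of the RefSeq table (GRCh38.p14), 64.8% of 22199 promoter windows of protein-coding genes overlapped a peak, and 4.95% to 5.80% did after offsets of 5000 to 50000 bp either way.

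One gene of the lists and 1 planned motif are not reported here. Overlap meant at least 1 bp. Local background was computed as (pileup + 1) / fold − 1, and within 0.05 tags of 2.37 counted as lowest. Since the pileup is an average over the peak, this background is approximate where it varies within a peak. Intervals took pileup × length / 200 as the tag number. Each promoter window runs from 250 bases before to 50 after a start; 6 of 9 genes had one. Python 3.11.15, pandas 2.3.3 and scipy 1.17.1 were used, and the overlap code was tested on simulated peaks. Named list genes were those highest, lowest and without a gene-end peak; IL6, CXCL8, the cell type examples and neighbouring genes were named after their values were seen.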

Additional observations from a re-analysis of the deposited data

How the results depend on the processing

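With 1 library, an absent peak was not detectable at this depth and setting, and no replicate error is known. Of 24 alternative values, 16 stayed within 1.5 times the reported count and 8 moved; a percentage counted as moved outside its 95% Wilson interval, 72.2% to 73.5%. The median fold over all peaks was 4.49. Keeping peaks with a fold enrichment of 4 or more, 4 of the 9 genes had a gene-end peak. CCND1, CDKN1A, CDKN2A, MYC and TERT had none, and 19 peaks were assigned in place of 46. The share of protein-coding genes was then 56.0%. It was 79.2% with gene ends of 2500 bp on each side, 69.2% with 500 bp, 71.5% with an overlap of at least 200 bp, 66.7% with −log10 q of at least 5 and 63.4% with a pileup of at least 20. With that q or pileup limit, 7 of 9 genes had a gene-end peak, without CDKN1A and TERT, and with 500 bp 8, without CDKN1A. Fewer peaks or narrower windows give fewer calls by construction. No paired analysis was possible because the ATAC and RNA groups share a single replicate number and no test was made.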

Other observations

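Neighbouring genes, chosen after the peaks were seen, were also described. The antisense gene CDKN2B-AS1, 133352 bp long, overlapped 17 peaks, of which 13 lay beyond the windows of CDKN2A and CDKN2B, with pileups from 14.3 to 77.0 tags and a median of 36.3. PVT1, the long noncoding gene next to MYC, overlapped 38 peaks from 8.55 to 81.2 tags over 306733 bp. PANDAR, a noncoding gene near CDKN1A, had no peak in the gene or within 1 kb of its ends, while DINOL shared the peak over the CDKN1A start.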
